A study of Homo sapiens with 6 samples.

Results

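The genes examined encode the protein core of the spliceosomal small nuclear ribonucleoproteins (snRNPs). They are the 3 proteins particular to the U1 snRNP, U1-70K (SNRNP70), U1-A (SNRPA) and U1-C (SNRPC), and the 7 Sm proteins B, D1, D2, D3, E, F and G (SNRPB, SNRPD1, SNRPD2, SNRPD3, SNRPE, SNRPF and SNRPG). The members were taken by name from the deposited tables, which gave 10 of 34957 genes and 65 of 180253 transcripts. The U1 snRNP recognizes the start of an intron by base pairing of the U1 snRNA with the 5′ splice site, and U1-C and U1-70K steady this contact. The Sm proteins form a ring around the Sm site of the U1, U2, U4 and U5 snRNAs and are loaded onto it in the cytoplasm by the SMN complex. U1-70K served in the study as a protein marker of the spliceosome, in work on how the lncRNA PLANE acts on alternative splicing together with hnRNPM.

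A549 cells, an established human lung adenocarcinoma line, were transfected for 48 h with the control siRNA si-ctrl or with one of the siRNAs against PLANE, si-PLANE.1 and si-PLANE.2. Each group had 2 libraries, numbered 1 and 2 in si-ctrl and si-PLANE.1 and 3 and 4 in si-PLANE.2, and the labels do not say whether they came from separate cultures, so p-values measure only the spread between these libraries. The si-ctrl libraries are called controls below. PLANE was not analysed here, and the values below hold no check of its knockdown. Levels are given as FPKM (fragments per kilobase of transcript, scaled to the number of fragments in the library), summed over the transcripts of a gene. Tests were run on expected counts, which are the authors' estimates of the fragments coming from each transcript, and a gene or transcript is said to have risen or fallen where its adjusted p was under 0.05 in edgeR over all features tested.

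Both libraries of si-PLANE.2 differed from the first 4, and this touches every comparison that uses them. Expected counts summed to 18281765 and 20778431 there and to 10572151 to 14267231 in the first 4 libraries. The median level of 9 replication-dependent histone mRNAs, which lack a poly(A) tail, was 0.22 and 0.50 FPKM after si-PLANE.2, compared with 75.1 to 154 FPKM elsewhere. Transcripts annotated as retained introns held 4.59% and 4.75% of all FPKM after si-PLANE.2, compared with 8.09% to 8.41% elsewhere. The methods of the study give both poly(A) isolation and rRNA removal as options and tie neither to particular samples, so what si-PLANE.2 did and how its libraries were made cannot be told apart. Of 10 markers of A549 or epithelial cells, 9 or 10 reached 1 FPKM in each library, with KRT19 at 0.76 to 5.38 FPKM. After si-PLANE.2, 7 of the 10 rose and 2 fell, from 1.81 on the log2 scale for AKR1B10 to -1.37 for CDH1 and -1.71 for EPCAM. Of all 14166 genes tested in this comparison, 31.9% rose and 32.3% fell, so a call alone does not set a marker apart. Of 9 markers of other cell types, CD3E was listed at 0 in all 6 libraries, PTPRC did not exceed 0.02 FPKM, COL1A1 stood at 3.29 to 13.1 FPKM and CD14 at 4.06 to 9.41 FPKM, and the summed level of the list was 11.5 to 20.3 FPKM.

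All 10 genes were expressed well above most of the transcriptome. Among genes with a mean of at least 0.5 FPKM they ranked between the 71.1st percentile, the lowest value of SNRPD1, and the 98.6th percentile, the highest value of SNRPB. In si-ctrl the mean level was 277 ± 30.02 FPKM for SNRPA (SD, n = 2, as for each mean that follows), 241 ± 35.3 FPKM for SNRPD2 and 225 ± 50.9 FPKM for SNRNP70, and the libraries of these genes overlapped. SNRPG (175 ± 12.2 FPKM) and SNRPB (166 ± 13.2 FPKM) came next and also overlapped. Below them SNRPD3 (99.97 ± 10.7 FPKM), SNRPC (73.0 ± 4.36 FPKM), SNRPE (45.3 ± 5.67 FPKM), SNRPF (38.4 ± 2.94 FPKM) and SNRPD1 (31.0 ± 4.96 FPKM) stood in an order in which no pair of neighbours overlapped. The Sm proteins enter the ring in equal numbers, and the levels of their mRNAs in si-ctrl spanned 31.0 to 241 FPKM.

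The order depended on which transcripts were summed. Counting only transcripts annotated as protein-coding, SNRNP70 in si-ctrl came to 37.3 ± 1.16 FPKM and SNRPA to 90.1 ± 12.3 FPKM, whereas the si-ctrl values of SNRPD2, SNRPC and SNRPD1 were unaltered. SNRPD2 then led, and SNRNP70, SNRPF, SNRPE and SNRPD1 overlapped with their neighbours at the lower end.

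**Figure D1:**
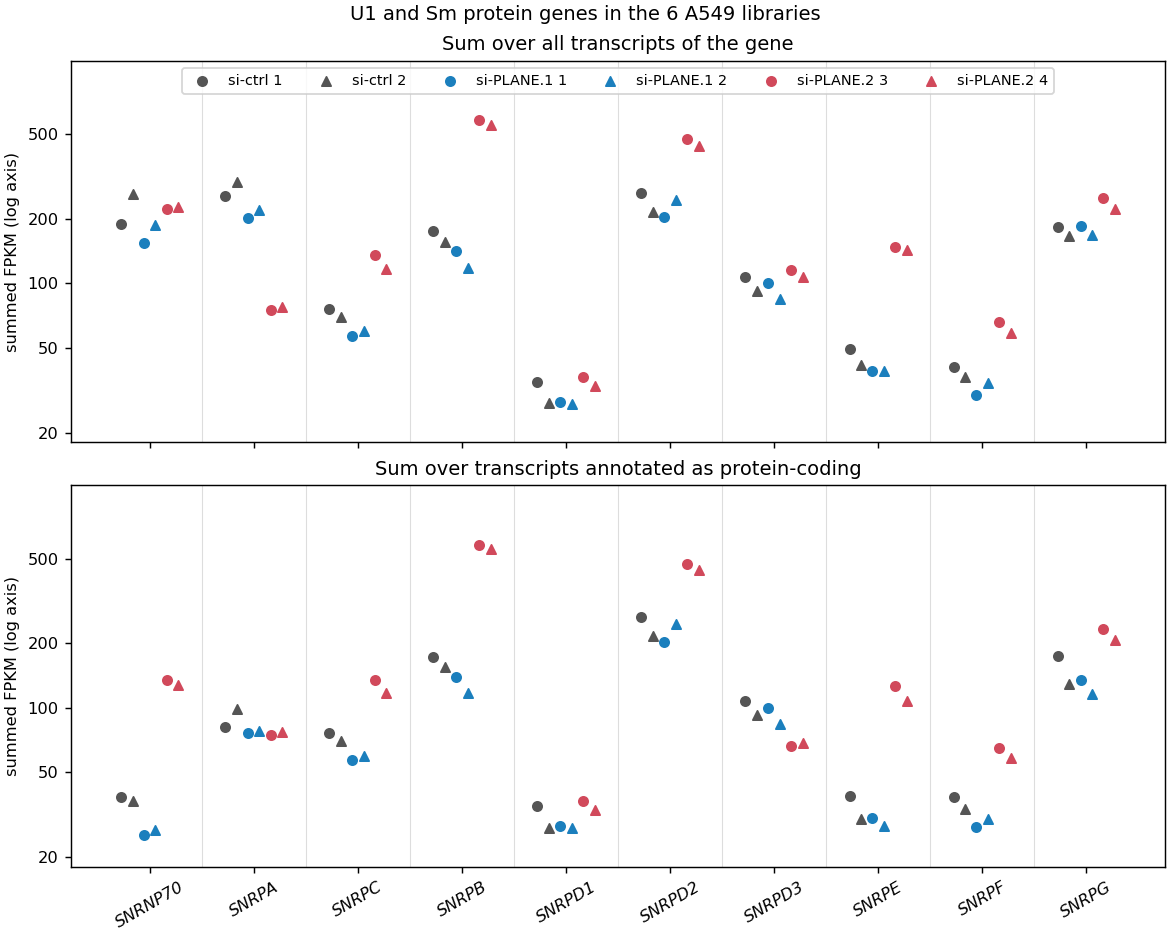
FPKM of the 10 genes in each library on a log axis, summed over all transcripts (top) and over transcripts annotated as protein-coding (bottom), with circles and triangles for the first and second library of a group. SNRPA lies between 203 and 298 FPKM in the controls and si-PLANE.1 and at 75.2 and 77.9 FPKM after si-PLANE.2 in the upper panel, whereas in the lower panel its 6 points lie between 74.8 and 98.8 FPKM.

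The first question was how the snRNP core genes stood after si-PLANE.1. All 10 genes had a lower estimate than in si-ctrl, with log2 fold changes of -0.43 (SNRPB) to -0.15 (SNRPD3) and a median of -0.35, against a median of 0.002 over all 14529 genes tested, of which 49.8% had a negative estimate. Other sets leaned the same way. Estimates were negative for 13 of 15 housekeeping genes (median -0.21), 7 of 10 A549 or epithelial markers (-0.31) and 14 of 16 U2 snRNP proteins (-0.18). Of 84 other spliceosome genes 53 were negative (median -0.10), but only 4 of 13 U1-associated factors were (median 0.04). In edgeR 0 of the 10 passed an adjusted p of 0.05 (lowest 0.373), beside 0.0344% of all genes called and 0.0275% called lower. DESeq2 and limma on log2(FPKM + 1) also called 0 members. An unadjusted p under 0.05 was found for 5 members, SNRNP70, SNRPA, SNRPC, SNRPB and SNRPF, where 10.4% of all genes had one. Whether a lower value reflects less RNA per cell or fewer cells expressing the gene cannot be told apart in bulk samples.

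Read by library, SNRPC stood at 76.1 and 69.9 FPKM in the controls and at 56.8 and 59.7 FPKM after si-PLANE.1. SNRPB, whose product SmB pairs with SmD3 in ring assembly, stood at 175 and 157 FPKM in the controls and at 142 and 118 FPKM after si-PLANE.1. For both genes each si-PLANE.1 library lay below each si-ctrl library. The same held for SNRNP70, SNRPA, SNRPE and SNRPF, so 6 of 10 members were lower without overlap, against 14.2% of all genes tested. SNRPD1, SNRPD2, SNRPD3 and SNRPG overlapped between the groups. SNRPG (184 and 167 FPKM in the controls, 185 and 169 FPKM after si-PLANE.1) had a log2 fold change of -0.23 ± 0.14 (SE) on counts and of 0.01 on log2(FPKM + 1).

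After si-PLANE.2, 8 of the 10 genes rose and 1 fell in edgeR, against 31.9% of 14166 genes called higher and 32.3% called lower. With nearly 2 in 3 genes of the transcriptome called (64.1%), a call alone sets no member apart. By limma 6 members were called higher and 1 lower on log2(FPKM + 1), with a median of 0.56, and 5 higher and 1 lower on log2(TPM + 1), with a median of 0.41. On counts the median log2 fold change of the members was 0.97, against -0.027 over all genes tested and 0.75 over 15 housekeeping genes, of which 10 rose and 1 fell. Of all calls 49.7% were higher on counts, 37.1% by limma on log2(FPKM + 1) and 28.6% by limma on log2(TPM + 1), TPM being FPKM rescaled to the same total in every library. The median of all genes moved with the scale, to -0.224 on log2(FPKM + 1) and -0.371 on log2(TPM + 1). By FPKM, 6 members were higher and 1 was lower without overlap of the libraries, where 30.9% and 49.7% of all genes were.

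The largest rises were those of the Sm genes SNRPB and SNRPE. SNRPB stood at 582 and 554 FPKM after si-PLANE.2, each more than the sum of both si-ctrl libraries, and its log2 fold change was 1.96 ± 0.10 (SE), or 3.90-fold (edgeR adjusted p = 9.47e-06). SNRPE, which enters the ring with SmF and SmG as a preformed trimer, stood at 49.3 and 41.3 FPKM in the controls and at 148 and 143 FPKM after si-PLANE.2, a 3.65-fold rise. SNRPF (40.4 and 36.3 FPKM in the controls, 65.9 and 58.8 FPKM after si-PLANE.2) rose 1.94-fold and SNRPG (252 and 224 FPKM after si-PLANE.2) rose 1.69-fold. For SNRPE, SNRPF and SNRPG the log2 fold changes were 1.87 ± 0.14, 0.95 ± 0.11 and 0.75 ± 0.13, and differences between the genes were not tested.

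SNRPD2, the partner of SmD1 in ring assembly, stood at 266 and 216 FPKM in the controls and at 473 and 441 FPKM after si-PLANE.2, and it rose 2.51-fold. SNRPD1 stood at 34.5 and 27.5 FPKM in the controls and at 36.5 and 33.2 FPKM after si-PLANE.2. These FPKM values overlapped, although the counts gave a log2 fold change of 0.35 ± 0.12 (edgeR adjusted p = 0.0331). The SNRPD1 call was lost without si-ctrl replicate 2 (0.24), without si-PLANE.2 replicate 3 (0.29) and without si-PLANE.2 replicate 4 (0.43). SNRPD3 (108 and 92.4 FPKM in the controls, 115 and 107 FPKM after si-PLANE.2) did not pass the test, with a log2 fold change of -0.18 ± 0.10 and a 95% interval of -0.37 to 0.01.

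Among the U1 genes, SNRPC rose from 76.1 and 69.9 FPKM to 136 and 117 FPKM, a log2 fold change of 0.99 ± 0.11 (edgeR adjusted p = 0.000173). SNRNP70 rose 2.01-fold on counts (log2 fold change 1.01 ± 0.12, edgeR adjusted p = 0.00026). Its summed FPKM, however, was 189 and 261 in si-ctrl and 223 and 228 in si-PLANE.2, which overlapped, and on log2(FPKM + 1) the value was 0.02. SNRPA fell on counts by 0.44 ± 0.15 on the log2 scale (edgeR adjusted p = 0.0299), a call that was lost without si-ctrl replicate 2 (-0.20), without si-PLANE.2 replicate 3 (-0.45) and without si-PLANE.2 replicate 4 (-0.42). Its FPKM went from 256 and 298 in si-ctrl to 75.2 and 77.9 in si-PLANE.2, a value of -1.84 on log2(FPKM + 1). In both genes short transcripts held a larger share of the FPKM than of the counts, as the values per transcript given below show.

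**Figure D2:**
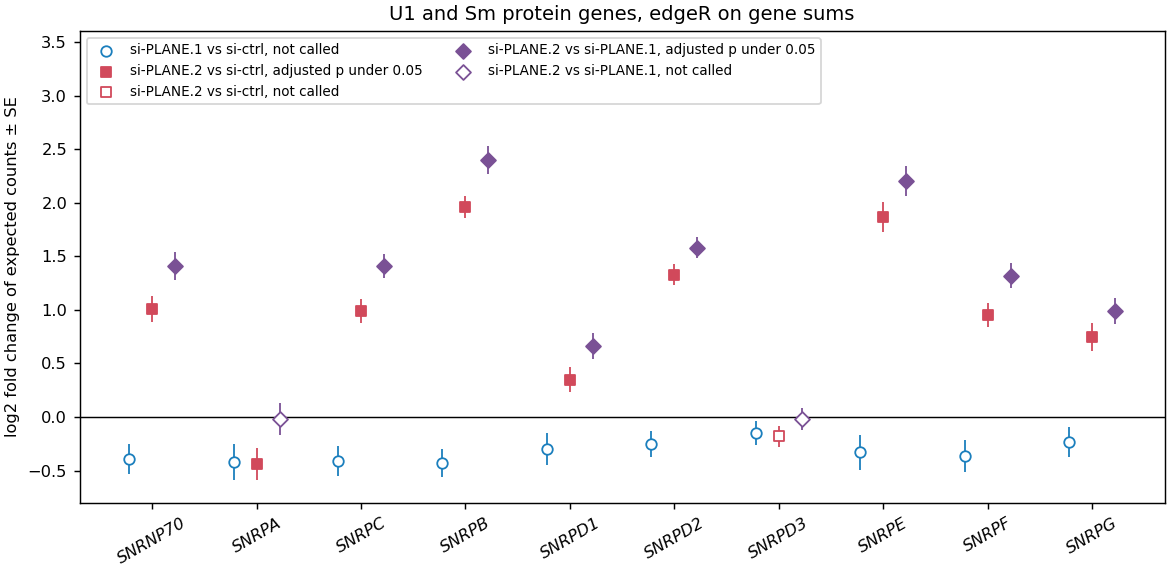
Log2 fold change of gene counts with its standard error for the 3 comparisons, filled where the edgeR adjusted p was under 0.05 and open where it was not. The si-PLANE.1 points of all 10 genes lie below 0 and are open, and the si-PLANE.2 points lie above 0 for all but SNRPA and SNRPD3.

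The siRNAs themselves were compared in one fit of all 6 libraries, in which the si-ctrl libraries enter the estimate of the spread but not the contrast. Against si-PLANE.1, 8 members were higher in si-PLANE.2 and 0 were lower, beside 31.1% of 14437 genes called higher and 33.4% called lower. Higher calls made up 48.2% of all calls on counts, 32.8% by limma on log2(FPKM + 1) and 22.2% on log2(TPM + 1). The log2 difference was 2.40 ± 0.13 for SNRPB, 2.20 ± 0.14 for SNRPE, 1.58 ± 0.10 for SNRPD2, 1.41 ± 0.13 for SNRNP70 and 1.41 ± 0.11 for SNRPC. It was 1.32 ± 0.12 for SNRPF, 0.99 ± 0.12 for SNRPG and 0.66 ± 0.12 for SNRPD1. SNRPA (-0.02, 95% interval -0.31 to 0.28) and SNRPD3 (-0.02, -0.21 to 0.17) did not pass the test on counts. SNRPA was called lower by limma on log2(FPKM + 1) (-1.46, adjusted p = 0.00014) and on log2(TPM + 1) (-1.7, adjusted p = 5.72e-05) and in edgeR with the trend with transcript length removed (-0.56, adjusted p = 0.0114). SNRPD3 was called lower in edgeR with the length trend removed (-0.57, adjusted p = 0.000956) and with coding transcripts alone (-0.67, adjusted p = 0.000818). By limma 6 members were called higher and 1 lower on log2(FPKM + 1), and 5 higher and 1 lower on log2(TPM + 1). By FPKM, 9 members were higher in both si-PLANE.2 libraries and SNRPA was lower, where 28.2% and 53.4% of all genes were. The si-PLANE.1 and si-PLANE.2 comparisons share the si-ctrl libraries, so their values are only set side by side.

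Per transcript, 41 of the 65 member transcripts passed the minimum of 0.5 FPKM for si-PLANE.1 and 44 passed it for si-PLANE.2. After si-PLANE.1, 0 member transcripts passed an adjusted p of 0.05 in edgeR and 3 had an unadjusted p under 0.05, while DESeq2 and limma called 0. Over all 57611 transcripts tested edgeR called 0, or 0.0% of them. After si-PLANE.2, 13 member transcripts rose and 4 fell, from 9 of the 10 genes, against 12.9% and 12.7% of 56787 transcripts. Of all transcripts called, 50.5% were higher in edgeR, 39.8% by limma on log2(FPKM + 1) and 34.1% on log2(TPM + 1). No member transcript was called without si-PLANE.2 replicate 3 or without replicate 4, and neither was any other transcript.

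SNRNP70 (GRCh37 chromosome 19, 49588676 to 49611862, plus strand) had 3 transcripts annotated as retained introns, which in si-ctrl held 73.2% and 80.2% of its FPKM and 45.5% and 52.6% of its counts. After si-PLANE.2 they held 31.1% and 34.1% of its FPKM and 26.03% and 26.6% of its counts. SNRNP70-205, of 580 bases, runs through the exon 4 donor for 119 bases of intron and is annotated as a retained intron. It stood at 102 and 152 FPKM in the controls, at 80.9 and 106 FPKM after si-PLANE.1 and 43.1 and 53.5 FPKM after si-PLANE.2. This was 53.9% and 58.2% of the gene's FPKM in si-ctrl and 19.3% and 23.4% in si-PLANE.2, but 21.4% and 26.5% against 4.88% and 6.00% of its counts. Its log2 fold change after si-PLANE.2 was -1.05 ± 0.27, which did not pass in edgeR (adjusted p = 0.057) and passed in DESeq2 (0.0133). SNRNP70-208, which passes the exon 7 donor by 197 bases, stood at 26.6 and 45.5 FPKM in the controls and fell to 5.19 and 3.53 FPKM (-2.68 ± 0.49, edgeR adjusted p = 0.0291).

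The main coding transcripts of SNRNP70 rose. SNRNP70-206 stood at 21.8 and 18.5 FPKM in the controls, 11.7 and 9.34 FPKM after si-PLANE.1 and 92.2 and 86.8 FPKM after si-PLANE.2, a log2 fold change of 2.45 ± 0.14 for si-PLANE.2 (edgeR adjusted p = 0.00645). SNRNP70-201, whose last exon starts 27 bases further downstream, rose from 16.1 and 17.5 FPKM to 43.4 and 41.1 FPKM (1.63 ± 0.14, edgeR adjusted p = 0.00859). Summed over its coding transcripts, SNRNP70 held 38.2 and 36.5 FPKM in the controls, 25.4 and 26.7 FPKM after si-PLANE.1 and 136 and 128 FPKM after si-PLANE.2. The groups did not overlap. With coding transcripts alone the log2 fold change for si-PLANE.2 was 1.91, compared with 1.01 for the whole gene.

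Not every intron-containing SNRNP70 transcript was lower in si-PLANE.2. SNRNP70-203, a retained-intron transcript of 3221 bases from the 3′ end of the gene, rose from 9.93 and 11.8 FPKM to 21.2 and 20.9 FPKM (1.23 ± 0.15, edgeR adjusted p = 0.0143). SNRNP70 also has an alternative exon between exons 7 and 8, and the spliced transcripts that include it are annotated as targets of nonsense-mediated decay (NMD), the pathway that degrades mRNAs with a premature stop codon. SNRNP70-202 includes the exon in a form of 1474 bases and stood at 10.9 to 14.4 FPKM in all 6 libraries. SNRNP70-209 includes a form of 60 bases and rose from 0.70 and 1.74 FPKM to 5.11 and 7.06 FPKM (2.62 ± 0.59, edgeR adjusted p = 0.0444).

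The 5′ splice sites at which these transcripts differ in the annotation are shown because they are the kind of sequence that the U1 snRNP itself reads. The 5′ end of the U1 snRNA (RNU1-1 in GENCODE, written as DNA) is printed first, with its bases 3 to 11 in capitals, and their complement in the pre-mRNA is CAGGTAAGT. In the donors, read from GRCh37 with the last 15 exon bases before the first 15 intron bases, the capitals mark the 9 bases that lie against those of U1.
U1 5′ end: atACTTACCTGgcagggg
SNRNP70 exon 4 donor, chr19:49593763-49593792, plus strand: cagagcttaaaaTGTGTAAGTctctcatcc
SNRNP70 exon 7 donor, chr19:49604714-49604743, plus strand: agcgagacatgcACTGTGAGTacctcccgc
SNRNP70 alternative exon, short donor, chr19:49605416-49605445, plus strand: acacctcagtgtATGGTTGGTataagggtt
SNRNP70 alternative exon, long donor, chr19:49606830-49606859, plus strand: gcaaggccggcaTCGGTAAATggcaccttt
SNRPG exon 3 donor, chr2:70515185-70515214, minus strand: aatattggaatgGTGGTAAGTaaagataca

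The exon 4 donor of SNRNP70 matched the U1 complement at 6 of 9 bases, as did the long donor of the alternative exon. Of 245851 annotated donors of protein-coding genes, 78.4% matched at 6 or more bases. The exon 7 donor and the short donor of the alternative exon matched at 5 bases, a number that 96.2% of donors reached or exceeded. The SNRPG exon 3 donor, described below, matched at 7 bases, as did 40.8% of donors or more closely. These matches describe the letters of the sites and were not related to the measured levels.

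SNRPA (GRCh37 chromosome 19, 41256542 to 41271294, plus strand) differed in its transcripts by FPKM more than by counts. SNRPA-202, a retained-intron transcript of 336 bases that begins 46 bases before the exon 5 acceptor, stood at 172 and 198 FPKM in the controls and at 126 and 142 FPKM after si-PLANE.1. It was listed at 0 in both si-PLANE.2 libraries, at least 86.4-fold lower than in si-ctrl against a floor of 3 counts per library. In si-ctrl it made up 67.4% and 66.2% of the gene's FPKM but only 14.4% and 12.4% of its counts. The fall of SNRPA by FPKM was therefore in large part that of SNRPA-202. The coding transcript SNRPA-201 held most of the counts in every library, 77.5% and 83.5% in si-ctrl, 79.6% and 81.3% in si-PLANE.1 and 86.9% and 84.2% in si-PLANE.2. By FPKM SNRPA-201 stood at 59.1 and 84.2 FPKM in the controls, 53.6 and 59.8 FPKM after si-PLANE.1 and 49.9 and 47.5 FPKM after si-PLANE.2, and it did not pass the test (-0.27 ± 0.21, edgeR adjusted p = 0.39).

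SNRPA-211, a coding transcript of 695 bases, was listed at 0 in the first 4 libraries and stood at 9.74 and 16.9 FPKM after si-PLANE.2. This was at least 34.5-fold higher than in si-ctrl. With coding transcripts alone, SNRPA held 81.5 and 98.8 FPKM in the controls and 74.8 and 77.1 FPKM after si-PLANE.2, and its log2 fold change of -0.35 no longer passed (edgeR adjusted p = 0.125). U1-A is known to bind the end of its own pre-mRNA and to block its polyadenylation.

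**Figure D3:**
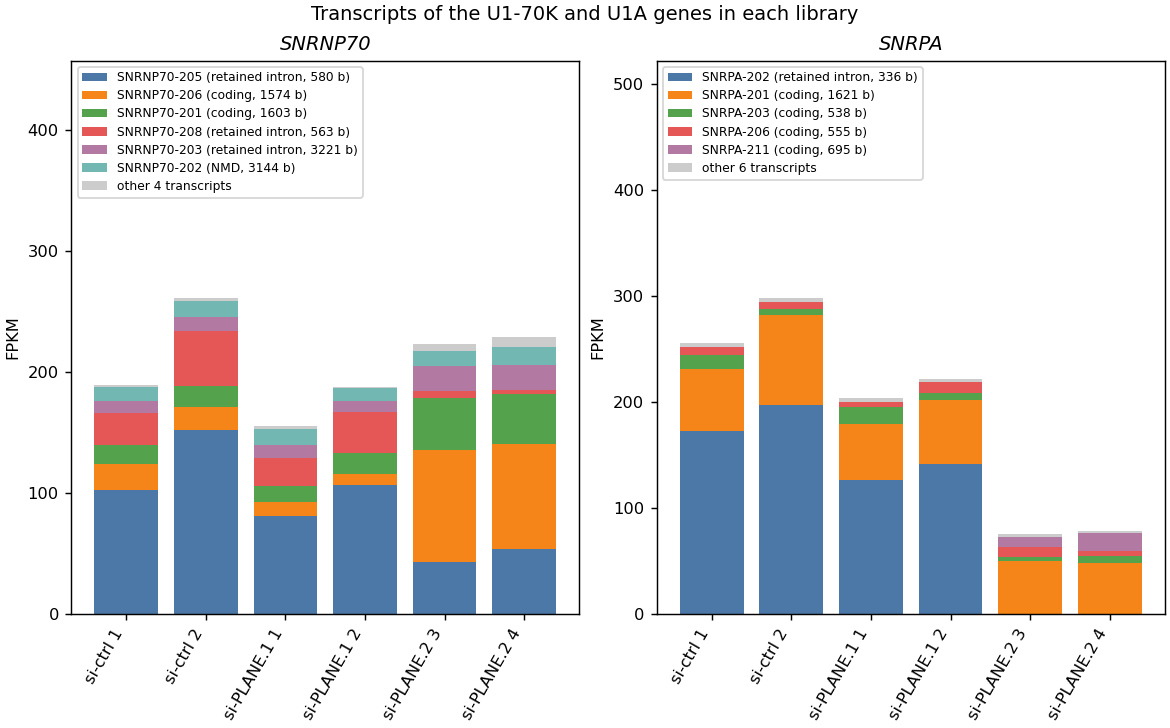
FPKM of SNRNP70 and SNRPA in each library, stacked by transcript, with the annotated type and length of each transcript holding at least 5% of the gene in any library. SNRNP70-205 and SNRPA-202 fill most of the bars in si-ctrl and si-PLANE.1, and SNRPA-202 is at 0 in si-PLANE.2.

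Across the 10 genes, 11 transcripts are annotated as retained introns. They held 23.4% and 32.5% of the members' summed FPKM in si-ctrl, 25.6% and 29.2% in si-PLANE.1 and 3.64% and 4.27% in si-PLANE.2. By counts the shares were 10.7% and 14.7%, 11.8% and 13.6%, and 5.21% and 5.65%. The retained-intron share of all genes moved in the same direction between these libraries, as given above. The part of library preparation in these shares was not tested.

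SNRPB (GRCh37 chromosome 20, 2442280 to 2451499, minus strand) gives 2 proteins, SmB and SmB′, through a choice between acceptors of its last exon that lie 146 bases apart. SNRPB-201 uses the upstream acceptor and stood at 86.9 and 73.3 FPKM in the controls, 72.8 and 57.0 FPKM after si-PLANE.1 and 250 and 236 FPKM after si-PLANE.2. SNRPB-202 uses the downstream acceptor and stood at 85.7 and 81.3 FPKM, 65.9 and 60.2 FPKM, and 330 and 316 FPKM. Both rose after si-PLANE.2, by 1.91 ± 0.13 and 2.26 ± 0.10 on the log2 scale (edgeR adjusted p = 0.0069 and 0.00551). The share of SNRPB-202 in the gene's FPKM was 48.9% and 51.9% in si-ctrl, 46.3% and 50.8% in si-PLANE.1 and 56.6% and 57.0% in si-PLANE.2. Both si-PLANE.2 values thus lay above the other 4. With 2 libraries a group an exact permutation test of a share cannot go below p = 0.333, so shares were not tested.

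In the annotation the transcripts named above differ at acceptors of SNRPB, of SNRNP70 and of SNRPA exon 5. SNRPB-201 and SNRPB-202 also differ there in their outer exon ends. The annotated length was 1082 bases for SNRPB-201 and 1671 bases for SNRNP70-206. The deposited lengths were 1154 and 1574 bases, so the transcript models behind the counts were not the same. The acceptors are shown with 20 intron bases before 10 exon bases and with the last 2 intron bases in capitals.
SNRPB-201 last exon, chr20:2442576-2442605, minus strand: acttcttactcttacttcAGgccttctttg
SNRPB-202 last exon, chr20:2442430-2442459, minus strand: ttgtctggtttcccttacAGggccccctcc
SNRNP70-206 last exon, chr19:49611032-49611061, plus strand: ggtctgcccacctcatccAGgcccggcccc
SNRNP70-201 last exon, chr19:49611059-49611088, plus strand: ccctccccgcttccgcacAGggaccgggac
SNRPA exon 5, chr19:41269472-41269501, plus strand: actcccctatacccccgcAGctttctgaga

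In the 18 bases before the AG, pyrimidines made up 15 in SNRPB-201 and 14 in SNRPB-202, 13 in SNRNP70-206 and 15 in SNRNP70-201, and 14 in SNRPA exon 5. Of 237312 annotated acceptors of protein-coding genes, 34.2% had at least 15 and 71.7% at least 13 and the median was 14. SNRPB is also known for an alternative exon that brings in a premature stop codon, and the SNRPB transcript annotated for NMD was listed at 0 in all 6 libraries. A further SNRPB transcript, ENST00000339610 of 1450 bases, is not in the annotation and stood at 1.19 to 3.65 FPKM. Whether it holds that exon was not examined.

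SNRPD2 (GRCh37 chromosome 19, 46190718 to 46195827, minus strand) was read mostly from SNRPD2-206, which stood at 142 and 151 FPKM in the controls, 131 and 113 FPKM after si-PLANE.1 and 441 and 411 FPKM after si-PLANE.2 (1.87 ± 0.12, edgeR adjusted p = 0.00663). SNRPD2-204, also coding, stood at 51.9 to 63.3 FPKM in the first 4 libraries and fell to 5.10 and 1.14 FPKM after si-PLANE.2 (-3.74 ± 0.77, edgeR adjusted p = 0.0368). This call was lost with the length trend removed (-3.30, edgeR adjusted p = 0.0503) and without si-ctrl replicate 1 or 2 (-3.80 each, edgeR adjusted p = 0.0745 and 0.077). SNRPD2-206 made up 53.4% and 69.9% of the gene's FPKM in si-ctrl and 93.2% in both si-PLANE.2 libraries. Some short transcripts differed between libraries of 1 group. SNRPD2-203, of 350 bases, stood at 39.9 and 0 FPKM in the controls and at 1.82 and 50.9 FPKM after si-PLANE.1, so its values are uncertain. The effective length implied by its counts and FPKM ranged from 100 to 119 bases over the libraries, which also alters its FPKM.

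SNRPD3 (GRCh37 chromosome 22, 24951926 to 24978020, plus strand) changed in composition while its total did not pass the test. SNRPD3-201 stood at 46.1 to 49.1 FPKM in the first 4 libraries and fell to 21.95 and 21.97 FPKM after si-PLANE.2 (-0.84 ± 0.12, edgeR adjusted p = 0.0172). SNRPD3-202 overlapped between si-ctrl (60.1 and 43.3 FPKM) and si-PLANE.2 (44.5 and 46.7 FPKM). ENST00000404603, of 715 bases, was listed at 0 in the first 4 libraries and stood at 47.5 and 38.1 FPKM after si-PLANE.2, at least 116-fold higher than in si-ctrl. Its annotated exons 1 to 4 lie within those of SNRPD3-201, so the division of reads between these transcripts rests on the authors' estimate. The annotated form of SNRPD3-201 was not the one counted, at 3466 bases against 1763 bases deposited. The deposited tables assign ENST00000404603 to SNRPD3, whereas GENCODE v44 on GRCh37 gives it to ENSG00000286070, annotates it for NMD and extends it to position 25005947 on chromosome 22, beyond the end of SNRPD3 at 24978020. With coding transcripts alone SNRPD3 held 107 and 92.4 FPKM in the controls and 66.4 and 68.7 FPKM after si-PLANE.2, and it fell by 0.80 on the log2 scale (edgeR adjusted p = 0.0007).

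**Figure D4:**
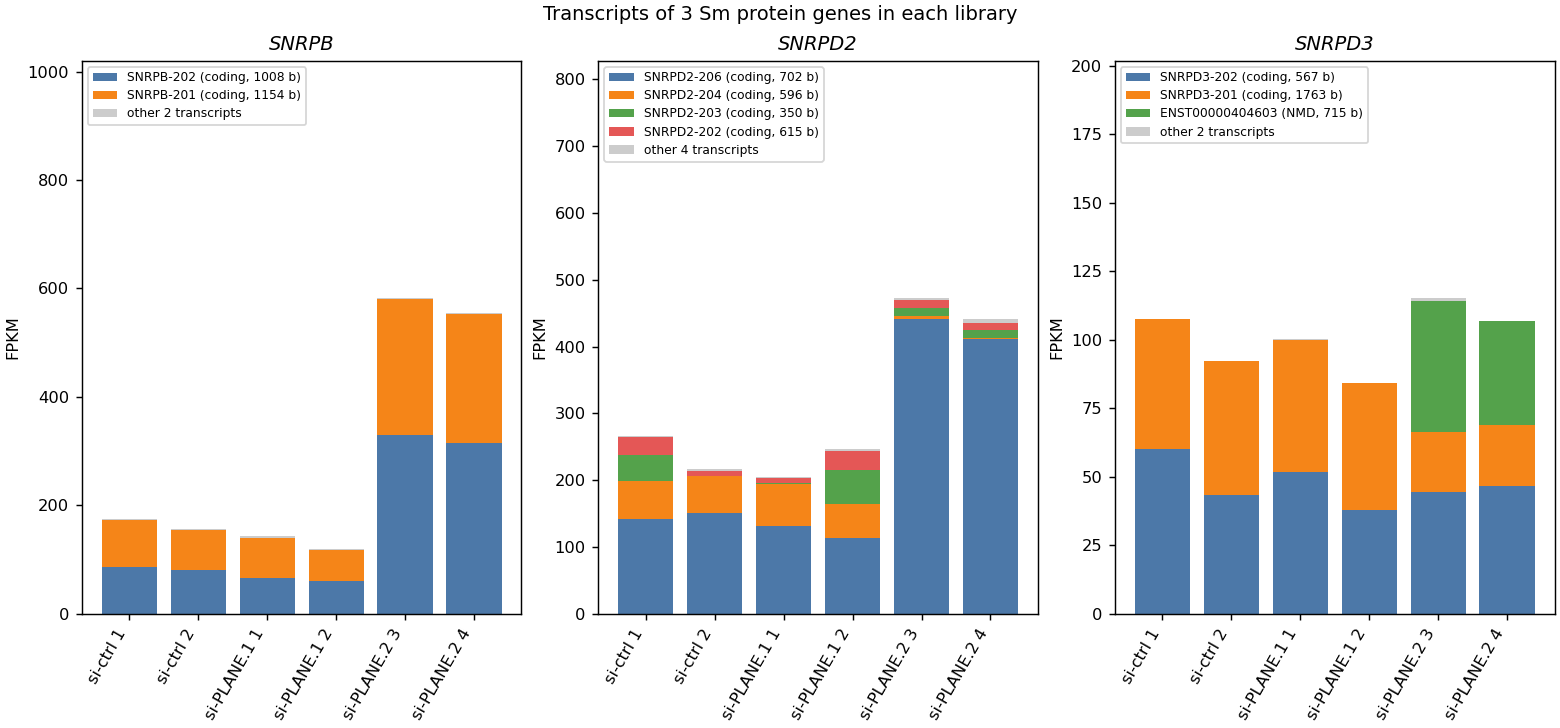
FPKM of SNRPB, SNRPD2 and SNRPD3 in each library, stacked by transcript as for the U1 genes. Both coding transcripts of SNRPB are higher in si-PLANE.2, SNRPD2-206 fills 93.2% of SNRPD2 there, and ENST00000404603 appears in SNRPD3 in si-PLANE.2 alone among the 6 libraries.

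The other Sm genes and SNRPC were each led by 1 coding transcript. On GRCh37 SNRPC lies on chromosome 6 (34725282 to 34741634, plus strand), SNRPD1 on chromosome 18 (19192275 to 19213485, plus strand) and SNRPE on chromosome 1 (203830727 to 203840280, plus strand). SNRPF lies on chromosome 12 (96252730 to 96297606, plus strand) and SNRPG on chromosome 2 (70508494 to 70520872, minus strand). After si-PLANE.2, SNRPC-201 rose to 125 and 115 FPKM (1.07 ± 0.12), SNRPE-202 to 124 and 105 FPKM (2.05 ± 0.19), SNRPF-201 to 64.9 and 58.4 FPKM (1.09 ± 0.14) and SNRPG-201 to 234 and 206 FPKM (0.89 ± 0.19, edgeR adjusted p = 0.0393). The SNRPG-201 call was lost on log2(FPKM + 1) (0.56, limma adjusted p = 0.0796), on log2(TPM + 1) (0.40, limma adjusted p = 0.222) and without si-ctrl replicate 2 (0.66, edgeR adjusted p = 0.06). SNRPD1-201 (32.8 and 27.5 FPKM in the controls, 35.2 and 31.8 FPKM after si-PLANE.2) did not pass (0.44 ± 0.15, edgeR adjusted p = 0.1). SNRPG-209, a retained-intron transcript of 393 bases that runs 132 bases past the exon 3 donor printed above, stood at 7.40 and 33.0 FPKM in the controls, 48.0 and 47.7 FPKM after si-PLANE.1 and 4.62 and 5.93 FPKM after si-PLANE.2. It did not pass for si-PLANE.2 (-1.51 ± 0.90), and its si-ctrl libraries differed more from each other than the si-PLANE.2 libraries did. Without it and the other transcripts that are not coding, SNRPG held 174 and 129 FPKM in the controls and 136 and 116 FPKM after si-PLANE.1. A further 10 transcripts that reached 5% of their gene's FPKM in some library did not pass in edgeR for either siRNA. They lay between 0 and 28.4 FPKM. They were SNRPA-203, SNRPA-206, SNRPC-203, SNRPD1-204, SNRPD2-202, SNRPE-203, SNRPE-205, SNRPE-206, SNRPF-203 and SNRPG-203. For si-PLANE.2, SNRPG-203 passed in DESeq2 (2.27, adjusted p = 0.02). By limma SNRPE-205 passed on log2(FPKM + 1) (adjusted p = 0.0439), SNRPF-203 on log2(TPM + 1) (0.0465) and SNRPE-203 on log2(FPKM + 0.1) (0.0378). SNRPE-203 had at most 7.3 counts in any library. Of all 65 member transcripts 59 were above 0 in at least 1 library.

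The members were set beside other genes of the spliceosome. Of 84 genes in 7 lists, 0 were called after si-PLANE.1 in edgeR and 0 in DESeq2, and 8 had an unadjusted p under 0.05. After si-PLANE.2, 31.9% of all 14166 genes tested rose and 32.3% fell on counts, with a median log2 fold change of -0.027. These shares stand beside the counts of every list that follows. Of 13 U1-associated factors 0 rose and 5 fell, with a median of -0.30 against 0.97 for the U1 and Sm genes. The share that fell was near that of all genes. By FPKM, however, LUC7L3, which fell by 0.67 on counts, went from 51.0 and 62.6 in the controls to 72.5 and 65.0. LUC7L2 and DDX39B, not called, were also higher by FPKM without overlap, whereas RBM25, PRPF39 and PRPF40B were lower on both scales. The median of this list with the trend with transcript length removed was not taken. Of 8 LSm proteins, which form related rings on U6 snRNA and on decaying mRNAs, 6 rose and 1 fell with a median of 0.85. LSM7 rose by 3.21 ± 0.19 on the log2 scale, more than any member, and LSM3 fell by 0.42.

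Of 16 U2 snRNP proteins 8 rose and 3 fell (median 0.31), from 1.98 for PHF5A to -1.36 for U2SURP. Of 17 U5 and tri-snRNP proteins 11 rose and 2 fell (median 0.57), with SART1 at 1.2 and PRPF38A at -0.66. By FPKM, however, SART1 stood at 35.8 and 45.9 in the controls and lower, at 32.8 and 30.6, after si-PLANE.2. Of 17 genes of the SMN complex and of Sm methylation, which assemble the Sm ring, 9 rose and 1 fell (median 0.47). COPRS, a cofactor of the methyltransferase PRMT5, rose by 1.43 and GEMIN5, the subunit that recognizes snRNAs, fell by 0.73. Reads of SMN1 and SMN2, which are near-identical, may be divided between them arbitrarily. Of 11 minor spliceosome proteins 6 rose and 3 fell (median 0.39, ZRSR2 at 1.36 and SNRNP48 at -0.93). Of the 2 U7 Sm-like proteins LSM10 rose by 1.63 and the other was not called.

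**Figure D5:**
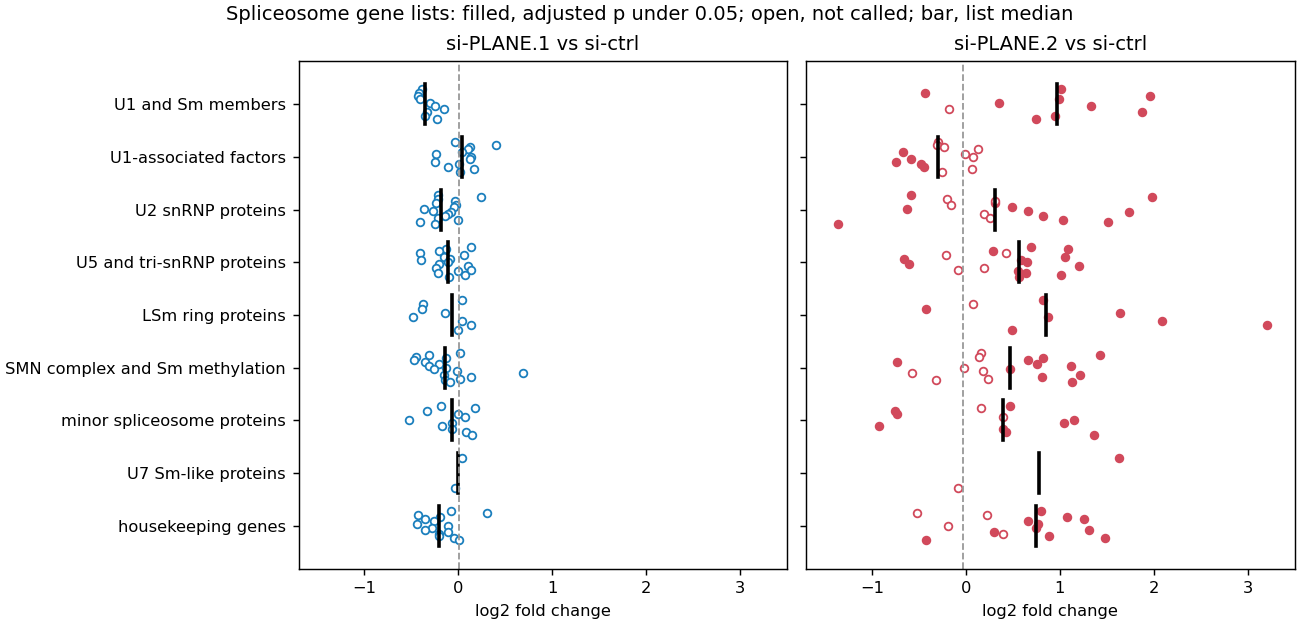
Log2 fold change of each gene of the spliceosome lists and of 15 housekeeping genes for si-PLANE.1 (left) and si-PLANE.2 (right), filled where the edgeR adjusted p was under 0.05, with a black bar at the median of each list and a dashed line at the median of all genes. On the right the U1 and Sm genes have a median of 0.97 and the housekeeping genes of 0.75, and on the left every point is open.

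Transcript length moved with the si-PLANE.2 comparison. Across 14166 genes, which are not independent replicates, the log2 fold change correlated with transcript length at a Spearman rho of -0.333, and the median length was 1230 bases for the members and 2562 bases for all genes tested. With this trend removed, 7 members were called higher and 2 lower, and their median log2 fold change was 0.50 in place of 0.97. It was 1.34 for SNRPB, 1.26 for SNRPE, 0.99 for SNRPD2 and 0.70 for SNRNP70, still called. For SNRPG (0.57), SNRPC (0.43) and SNRPF (0.41) the call also stood, and SNRPA was at -0.97. SNRPD1 came to -0.03 and was no longer called, and SNRPD3 came to -0.71 and was called lower.

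Relatives of the members could take up some of their reads. SNRPN, a paralogue of SNRPB, stood at 7.48 and 5.46 FPKM in the controls, 7.28 and 9.55 FPKM after si-PLANE.1 and 13.6 and 13.7 FPKM after si-PLANE.2, and it rose after si-PLANE.2 (1.07, edgeR adjusted p = 0.00128). SNURF, listed as a gene apart from SNRPN, stood higher, at 59.3 and 66.5 FPKM in the controls and 70.3 and 72.2 FPKM after si-PLANE.1. After si-PLANE.2 SNURF stood at 96.6 and 86.6 FPKM and also rose (0.67, edgeR adjusted p = 0.001015). The tables list 55 processed pseudogenes of the members, and in any library at most 3 were above 0. They held at most 0.0563% of the counts of members and pseudogenes together. Of the 4 with a mean of at least 0.5 FPKM, SNRPCP8, SNRPCP9 and SNRPEP9 rested on at most 1 count in any library. SNRPGP15 was listed at 0 in si-ctrl and si-PLANE.1 and had 11.1 and 14.0 counts in si-PLANE.2. How the authors' counting treated reads that match several places is not given in the sources used here.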

How the data were processed

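RNA-seq of A549 cells was taken from 2 deposited transcript tables, one for each siRNA against PLANE, which hold the same si-ctrl values. Per the labels' processing notes the authors used Trimmomatic 0.30, HISAT2 2.0.1, HTSeq 0.6.1 and DESeq with hg19. The deposited values are expected counts, which are estimated counts that need not be whole, and FPKM made by the authors. The tool that estimated them, the annotation release, the use of strand and the treatment of reads with several matches are not given in the sources used here. The tables also hold the authors' own fold changes and p-values, which were not used.

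Transcripts were summed by gene. Transcripts without a gene (16723 rows, 3.03% to 3.62% of the counts of a library) were left out. Counts were rounded for the tests, which were made in edgeR 4.0.16 (R 4.3.3, quasi-likelihood test, TMM scaling), each siRNA against si-ctrl over 4 libraries and the siRNAs against each other over all 6, for features whose mean reached 0.5 FPKM, with Benjamini-Hochberg adjustment over all features tested. Standard errors are the log2 fold change divided by the square root of the F statistic, and 95% intervals take a normal spread. Sequences were read from GRCh37 (hg19) with the GENCODE v44 annotation on that build. The scripts were tested on simulated counts. A fold change on log2(FPKM + 1) or log2(TPM + 1) understates the change of low genes. Floors of 3 counts cover counting error only, and not the division of reads that transcripts of a gene share.

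Alternatives were 75th-percentile and RLE scaling, DESeq2 1.42.0, limma 3.58.1 on FPKM or TPM, other minimums, 1 fit of all libraries, the most abundant transcript of a gene, removal of the length trend, a replicate block and the omission of each library. Sums over coding transcripts or over transcripts of at least 400 bases were chosen after seeing the data. The text names all members, their transcripts with at least 5% of the gene's FPKM in any library or an adjusted p under 0.05, the called gene with the largest rise and fall of each list (1 is not reported here), SNRPN, and pseudogenes with a mean of at least 0.5 FPKM. The splice sites, CD3E, PTPRC, COL1A1, CD14, KRT19 and CDH1 were named after their values were seen. The same holds for SNURF, ENST00000339610, LUC7L2, LUC7L3, DDX39B, RBM25, PRPF39 and PRPF40B. The members and lists were chosen with earlier results of these data known.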

Additional observations from a re-analysis of the deposited data

Results flagged for a closer look

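For 8 members the effects of the siRNAs differed by the test of the difference itself, over all 6 libraries. The log2 value of si-PLANE.2 minus si-PLANE.1 was 2.40 for SNRPB, 2.20 for SNRPE, 1.58 for SNRPD2, 1.41 for SNRNP70, 1.41 for SNRPC, 1.32 for SNRPF, 0.99 for SNRPG and 0.66 for SNRPD1 (edgeR adjusted p of 2.27e-06 for SNRPB to 0.00143 for SNRPD1). In each of the 8 genes both si-PLANE.2 libraries lay above both si-PLANE.1 libraries in FPKM. Of all genes tested 64.5% were called in this comparison, and the histone mRNAs that mark the si-PLANE.2 libraries differ between the same groups. Of the 8, SNRNP70 was not called by limma on log2(FPKM + 1) (0.40, adjusted p = 0.0875) or log2(TPM + 1) (0.17, adjusted p = 0.351), nor was SNRPD1 (0.32 and 0.10), which also lost its call in edgeR with the length trend removed (0.28, adjusted p = 0.0755). SNRPG was not called on log2(TPM + 1) (0.19, adjusted p = 0.282).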

How the results depend on the processing

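The count of called members held within 1.5 times under all alternatives except these. With a replicate block for si-PLANE.1, 4 members were called lower (SNRPB -0.44, SNRPC -0.42, SNRPA -0.41 and SNRNP70 -0.38) beside 1225 of all genes. The numbers 1 and 2 occur in both si-ctrl and si-PLANE.1, the labels do not say that they mark a shared culture, and the replicate differences of the groups correlated at 0.292 across 14529 genes, with the same sign in 6 of 10 members. No paired analysis was possible because si-PLANE.2 is numbered 3 and 4 for the other comparisons. Leaving out 1 library, called member transcripts after si-PLANE.2 ranged from 0 to 18, with 0 without either si-PLANE.2 library, and the library left alone in its group was assumed to vary like the other group. Over all genes, si-PLANE.1 calls were 5 in edgeR, 124 in DESeq2 and 17 with all 6 libraries in 1 fit, and over all transcripts 0 in edgeR and 390 in DESeq2.

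Of the members' log2 fold changes with all libraries kept, 334 kept direction and call, 13 reversed, 13 gained and 20 lost the call, and for transcripts the numbers were 306, 11, 16 and 5. The cause was not tested. For si-PLANE.1 SNRPG reversed to 0.01 on log2(FPKM + 1) and on log2(FPKM + 0.1) and to 0.09 on log2(TPM + 1), none called. For si-PLANE.2 SNRPD3 went to 0.15 on both FPKM scales and to 0.08 when a gene was its most abundant transcript, SNRNP70 to -0.14 on log2(TPM + 1) and to -1.15 (called, edgeR adjusted p = 0.0174) with the most abundant transcript, and SNRPD1 to -0.03 with the length trend removed. Between the siRNAs SNRPA went to 0.04 with coding transcripts alone and to 0.17 with transcripts of at least 400 bases, and SNRPD3 to 0.27 on log2(FPKM + 1) and 0.04 on log2(TPM + 1). Without 1 library these ranged from -0.11 to 0.08 for SNRPA and from -0.06 to 0.03 for SNRPD3.

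Among transcripts after si-PLANE.2, values on log2(TPM + 1) reversed to -0.01 for SNRPD1-201, -0.06 for SNRNP70-202, -0.10 for SNRPA-206 and -0.32 for SNRPD3-202, the last also -0.16 on both FPKM scales. With the length trend removed SNRPD2-202 was 0.17 and SNRPD2-203 0.28. SNRPD2-203 was 1.02 on log2(FPKM + 1) and on log2(TPM + 1) and 2.59 on log2(FPKM + 0.1). Without 1 library the values ranged from -0.88 to 0.76 for SNRPD2-202, -0.08 to 0.37 for SNRPD3-202, -0.04 to 6.64 for SNRPD1-204 and -1.27 to 7.71 for SNRPD2-203. Shares within a gene moved by more than the replicate SD for 14 of 18 values when counts replaced FPKM.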

Other observations

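Summed over the 10 members, the libraries held 1378 and 1366 FPKM in the controls, 1144 and 1187 FPKM after si-PLANE.1 and 2108 and 1984 FPKM after si-PLANE.2. As a share of expected counts the members took 864.7 and 865.9 CPM in the controls, 738.9 and 716.3 CPM after si-PLANE.1 and 1629 and 1533 CPM after si-PLANE.2. The groups did not overlap on either scale.

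The members' transcripts annotated for NMD, 7 in number, held 0.928% and 1.11% of the members' FPKM in si-ctrl, 1.34% and 1.00% in si-PLANE.1 and 3.11% and 3.05% in si-PLANE.2. With ENST00000404603 counted to SNRPD3, their share was thus higher in si-PLANE.2 while that of the retained-intron transcripts was lower. Over all genes the NMD share was lower in si-PLANE.2, at 2.125% and 2.169% of FPKM, compared with 2.518% to 3.35% elsewhere. After si-PLANE.2 most of the NMD share was that of ENST00000404603 (47.5 and 38.1 FPKM), which GENCODE v44 gives to another gene than SNRPD3. The NMD transcripts of SNRNP70 held 12.6 and 15.1 FPKM in si-ctrl and 17.9 and 22.1 FPKM in si-PLANE.2, while the members' summed FPKM also rose. A rise of the share without ENST00000404603 is therefore not shown.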
